A study of Homo sapiens with 24 samples.

Results

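The comparison described here is pacritinib against DMSO after 48 h in HEL cells, a human line from an erythroleukaemia, with an activating mutation in JAK2 and erythroid and megakaryocytic features. The 4 libraries were chosen by their labels alone, 2 with 500 nM pacritinib and 2 with DMSO, the solvent, out of 24 libraries in 12 groups. The other groups were HEL cells given DMSO or 500 nM pacritinib for 4 h, and HEL cells given 500 nM ruxolitinib, fedratinib, momelotinib or itacitinib for 4 h or 48 h. Those at 4 h with DMSO or pacritinib and those at 48 h with ruxolitinib, fedratinib or momelotinib were used for comparison, each with 2 libraries. All groups therefore share 1 cell line, and every group value rests on n = 2. Whether the 2 libraries of a group came from separate cultures is not stated in the labels, and the p-values then reflect their spread alone, possibly technical.

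JAK2 is the tyrosine kinase that carries signals from the erythropoietin, thrombopoietin and related cytokine receptors to STAT transcription factors, to RAS and ERK, and to PI3 kinase. Activated STAT5 and STAT3 bind a palindromic element and raise genes that include their own feedback inhibitors of the CIS and SOCS family. Pacritinib is an anilinopyrimidine closed into a macrocycle, which inhibits JAK2 and FLT3 and also binds IRAK1, CSF1R and ACVR1, the last a receptor for bone morphogenetic proteins (BMP). The list of pacritinib kinase targets, which also held TYK2, had 6 genes, of which 5 were tested (JAK2, TYK2, IRAK1, ACVR1 and CSF1R). FLT3 was not among those 5. Only TYK2 of the 5 differed from DMSO at 48 h. TYK2, a kinase of the JAK family, was at 265 and 254 CPM (counts scaled to library size) with pacritinib and 240 and 230 CPM with DMSO, a log2 fold change of 0.14 ± 0.05 (SE, edgeR adjusted p = 0.037). The call was lost without DMSO replicate 1 (adjusted p = 0.0551), DMSO replicate 2 (adjusted p = 0.255) or pacritinib replicate 1 (adjusted p = 0.246).

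The 4 libraries held 32621857 and 37759745 counts with pacritinib and 36232962 and 36251895 with DMSO, and 16076 of 34213 genes were kept for testing. All 8 erythroid and all 7 megakaryocytic markers were at 1 CPM or above. Their summed levels were 2455 and 2463 CPM with pacritinib against 2475 and 2466 CPM with DMSO for the erythroid markers, and 1391 and 1382 against 1493 and 1476 CPM for the megakaryocytic ones. Of 8 monocyte and granulocyte markers 2 reached 1 CPM (LYZ and ITGAM) and 2 were at 0 (S100A8 and S100A9). Of 5 lymphocyte markers 2 reached it (CD79A and NKG7) and MS4A1 was at 0, and 0 of 4 epithelial or stromal markers did. The share of counts from RN7SL copies, which encode the RNA of the signal recognition particle, was 4.52 and 4.76% with pacritinib and 3.05 and 3.36% with DMSO. The share from the mitochondrial rRNA genes was 0.128 and 0.115% against 0.0586 and 0.0912%. Both shares were higher in the 2 pacritinib libraries, and their part in the results below was not tested. In RNA from whole cultures, fewer cells of a type and less RNA per cell cannot be told apart.

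After 48 h with pacritinib, all 13 mRNAs of the mitochondrial genome were higher than with DMSO, as were 9 of 18 genes of serine and one-carbon metabolism, 13 of 22 ATF4 targets and the cytokine genes LIF and OSM. Called lower were the receptor and adhesion genes CDH5, KDR and FLT4, the transcriptional regulators ID2 and ID3, 9 of 16 ERK outputs (CCND1, DUSP6 and ETV4 among them), 10 of 24 cholesterol synthesis genes and 19 of 40 mitosis genes. By edgeR's quasi-likelihood test with Benjamini-Hochberg adjustment over all genes tested (called at an adjusted p under 0.05), 2948 genes differed, 18.3% of those tested. They comprised 1328 higher genes (8.26%) and 1620 lower genes (10.1%). These shares are the background for the list counts at 48 h below. Most differences were small, with a median absolute log2 fold change of 0.30 among called genes. In all, 93 called genes were at least 2-fold higher (0.579%) and 75 at least 2-fold lower (0.467%). The total was 1838 without DMSO replicate 1, 1613 without DMSO replicate 2, 1475 without pacritinib replicate 1 and 2208 without pacritinib replicate 2.

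**Figure D1:**
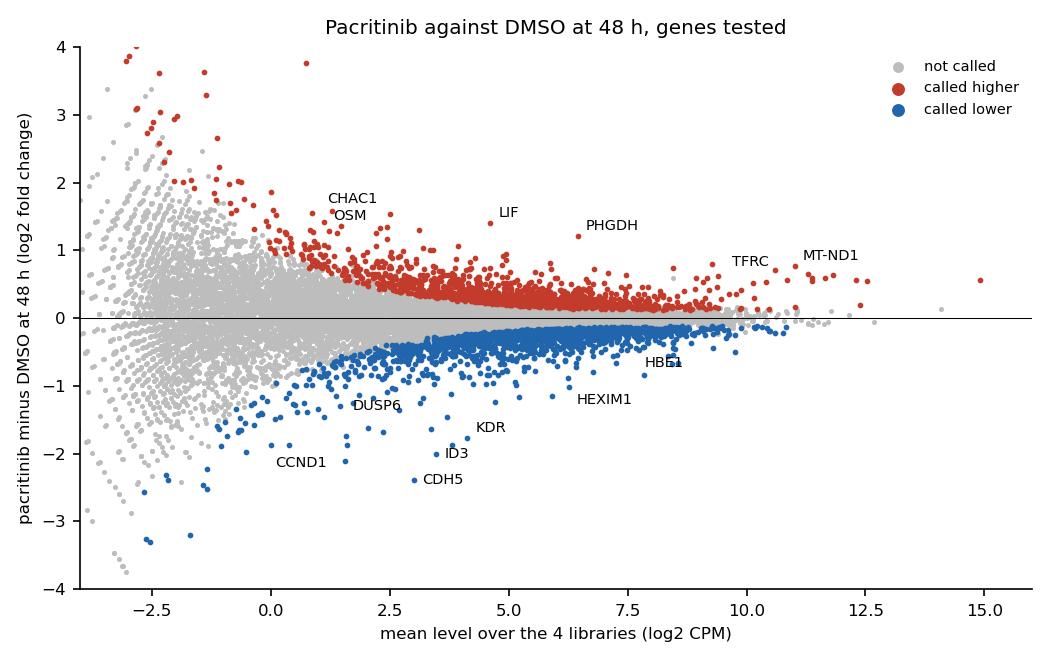
Log2 fold change of pacritinib against DMSO at 48 h (vertical axis) against the mean level over the 4 libraries in log2 CPM (horizontal axis), 1 point per gene tested, with 52 genes outside the axes not drawn. Genes called higher are red, genes called lower blue and the rest grey; LIF (1.4) and PHGDH (1.21) stand well above the other genes of their level, and CDH5 (-2.39) and ID3 (-2.01) well below.

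Promoters of 3 genes are shown because they hold DNA elements through which JAK-STAT and ATF4, the regulator of amino acid supply genes, are known to act. The sequences are from RefSeq (GRCh38.p14), cover the 250 bases before the start of transcription and run 5′ to 3′ on the strand of the gene. CISH, a feedback inhibitor with 4 STAT elements, lies on the minus strand at chr3:50611775-50612024. ASNS, also on the minus strand at chr7:97872409-97872658, and CHAC1, on the plus strand at chr15:40953221-40953470, are amino acid response genes. In CISH the capitals mark matches to TTCNNNGAA, the palindromic STAT element. In ASNS and CHAC1 they mark the single match to TGATGNAA, the core of the element bound by ATF4 and C/EBP proteins, on the plus strand of the window in ASNS and on its minus strand in CHAC1.
CISH: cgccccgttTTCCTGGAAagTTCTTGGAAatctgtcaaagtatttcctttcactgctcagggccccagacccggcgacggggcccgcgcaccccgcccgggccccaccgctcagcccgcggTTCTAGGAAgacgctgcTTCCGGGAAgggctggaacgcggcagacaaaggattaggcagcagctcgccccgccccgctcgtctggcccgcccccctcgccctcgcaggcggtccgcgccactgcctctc
ASNS: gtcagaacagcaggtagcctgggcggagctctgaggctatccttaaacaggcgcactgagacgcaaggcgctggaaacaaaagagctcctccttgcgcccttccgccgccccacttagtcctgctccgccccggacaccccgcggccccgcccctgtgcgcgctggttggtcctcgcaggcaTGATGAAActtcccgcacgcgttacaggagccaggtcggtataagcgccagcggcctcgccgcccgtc
CHAC1: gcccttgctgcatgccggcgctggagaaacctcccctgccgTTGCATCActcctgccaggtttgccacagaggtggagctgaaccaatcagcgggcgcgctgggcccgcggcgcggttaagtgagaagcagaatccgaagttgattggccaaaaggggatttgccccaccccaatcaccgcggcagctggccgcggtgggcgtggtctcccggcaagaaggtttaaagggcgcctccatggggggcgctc
The STAT element was found in 6.57% of all 35116 promoter windows of this length in the RefSeq table, and the ATF4 element in 3.14%, with both strands searched. With 1 window per gene, 3 of 18 JAK-STAT target genes with an entry held the STAT element (CISH, IRF1 and BCL6). Of 20 ATF4 target genes with an entry, 4 held the ATF4 element (ASNS, CHAC1, ATF3 and FGF21). Counted in the same way, 5.66% of tested genes with an entry held the STAT element and 1.52% the ATF4 element. The shares were 4.12 and 1.13% among genes called higher at 48 h, and 5.57 and 1.96% among genes called lower. A match describes the letters of the window and is no evidence of binding in these cells.

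The list of JAK-STAT targets describes how far its own members were lowered after 48 h. Like the other lists, it was chosen with earlier results of these data known, so its counts are no independent test of the pathway. Of its 24 genes, 7 were higher (8.26% of all genes were), 3 were lower (10.1%) and 14 were not called. The median log2 fold change was 0.03 against 0.00 for all genes tested. The higher genes numbered 4 without DMSO replicate 1, 3 without DMSO replicate 2, 5 without pacritinib replicate 1 and 4 without pacritinib replicate 2. At 4 h, 18 of the 24 had been lower than in DMSO (17.4% of all genes were) and 0 higher (13.1%), with a median of -0.55. The effect at 48 h minus the effect at 4 h was called above 0 for 16 of the 24 (10.3% of all genes) and below 0 for 0 (7.58%).

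Feedback inhibitors of the pathway stood at or above the solvent level by 48 h. CISH, which encodes a STAT5 feedback inhibitor and whose promoter is printed above, was at 60.7 and 58.9 CPM with pacritinib and 44.4 and 44.6 CPM with DMSO. At 4 h it had been at 35.6 and 28.9 against 43.7 and 51.9 CPM. The 2 groups did not overlap at either time, but pacritinib lay below DMSO at 4 h and above it at 48 h. The log2 fold change was -0.57 ± 0.08 (edgeR adjusted p = 4.69e-07) at 4 h and 0.43 ± 0.07 (adjusted p = 7.83e-05) at 48 h, and the 2 effects differed by 1.00 ± 0.10 (adjusted p = 3.71e-08). SOCS3, a feedback inhibitor acting on JAK kinases and their receptors, went from 18.2 and 9.89 CPM at 4 h (DMSO 33.4 and 32.1) to 47.1 and 47.5 CPM at 48 h (DMSO 32.6 and 36.4). Its effect was 0.46 ± 0.12 at 48 h (adjusted p = 0.00547), a call lost without DMSO replicate 1 (adjusted p = 0.0857). SOCS2 was also higher at 48 h (0.31 ± 0.08, adjusted p = 0.00688), a call lost without DMSO replicate 2 (adjusted p = 0.0647) and without pacritinib replicate 2 (adjusted p = 0.138). PIM1, a survival kinase induced by STAT5, had 623 and 640 CPM with pacritinib and 564 and 573 with DMSO (0.15 ± 0.05, adjusted p = 0.0436). The call for PIM1 was lost without any 1 of the 4 libraries, with adjusted p from 0.0965 to 0.199.

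The cytokine genes LIF and OSM rose above DMSO by more. LIF, a cytokine of the interleukin-6 family on chromosome 22 (30240447 to 30246851, GRCh38), was at 37.0 and 34.2 CPM with pacritinib against 12.8 and 14.2 CPM with DMSO. It had the highest log2 fold change among protein-coding genes of at least moderate level (a mean log2 CPM of 3 or more), 1.4 ± 0.12 (adjusted p = 4.64e-10). At 4 h the order was the opposite, 15.1 and 11.6 CPM with pacritinib against 21.4 and 24.5 CPM with DMSO. OSM, its neighbour on chromosome 22 (30262829 to 30266840) and a STAT5 target in blood cells, was at 7.54 and 8.04 against 3.23 and 2.89 CPM. Its log2 fold change was 1.35 ± 0.17 at 48 h (adjusted p = 3.80e-07) and -0.57 ± 0.17 at 4 h (adjusted p = 0.0121). Both cytokine genes thus changed in opposite directions at the 2 times, and the difference of the effects was 2.18 ± 0.17 for LIF and 1.92 ± 0.24 for OSM (adjusted p = 1.13e-10 and 7.27e-07).

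The 3 lower JAK-STAT targets among 24 were near the share of all genes tested (10.1%). Of these, IL21R and ID1 lay below DMSO at both times. IL21R, a cytokine receptor subunit, was at 13.5 and 16.4 CPM with pacritinib and 22.0 and 22.9 CPM with DMSO (-0.58 ± 0.10, adjusted p = 8.91e-05). At 4 h it had been lowered by more (-2.12 ± 0.12). ID1, which belongs to the BMP targets as well, was at 50.7 and 64.0 against 85.1 and 90.7 CPM (-0.61 ± 0.07, adjusted p = 2.86e-07). BCL2L1, which encodes the survival protein BCL-XL, was at 207 and 203 CPM with pacritinib and 212 and 218 CPM with DMSO and was not called (-0.07 ± 0.04, adjusted p = 0.284), after a called -0.65 ± 0.04 at 4 h. BCL3 was not called at 48 h either (-0.09 ± 0.14, adjusted p = 0.728), whereas its value at 4 h was -2.07 ± 0.15. JAK2 itself was at 171 and 162 CPM against 168 and 177 CPM (adjusted p = 0.592).

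**Figure D2:**
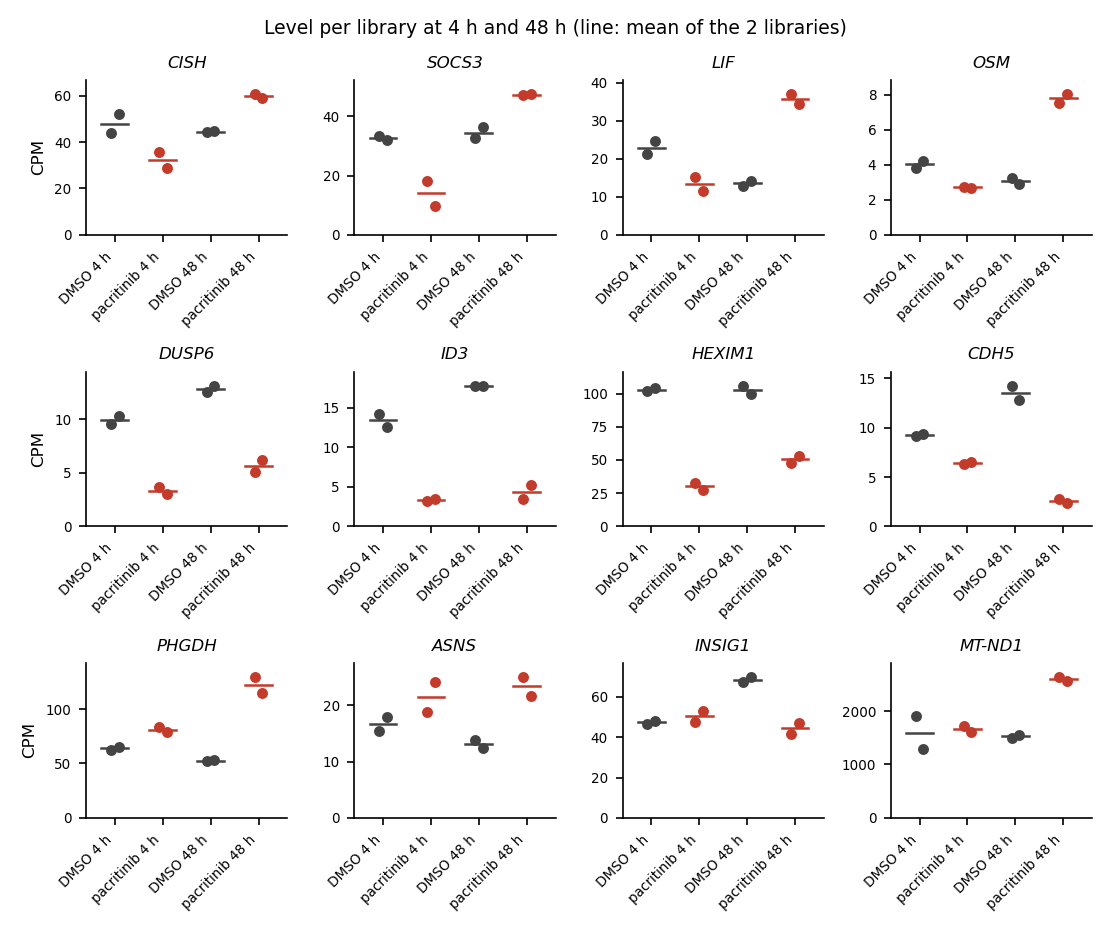
Level in CPM (vertical axes, starting at 0) of 12 genes in each library with DMSO (dark grey) or pacritinib (red) at 4 h and 48 h, 1 point per library and a line at the mean of the 2. CISH, SOCS3, LIF and OSM lie below DMSO at 4 h and above it at 48 h, DUSP6, ID3, HEXIM1 and CDH5 lie below it at both times, and MT-ND1 is separated from DMSO at 48 h and overlaps it at 4 h.

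ERK outputs are the genes that RAS and ERK signalling induces. Of 20 genes written in the list 16 could be tested, of which 9 were lower and 1 was higher at 48 h, with a median of -0.31. The lower genes numbered 7, 6, 4 and 8 without DMSO replicate 1, DMSO replicate 2, pacritinib replicate 1 and pacritinib replicate 2, and the higher ones 1, 2, 1 and 1. CCND1, which encodes cyclin D1, was at 0.955 and 1.26 CPM with pacritinib and 5.05 and 4.62 CPM with DMSO, a log2 fold change of -2.11 ± 0.25 (adjusted p = 1.82e-07). DUSP6, a phosphatase that inactivates ERK, was at 5.08 and 6.23 against 12.5 and 13.1 CPM (-1.18 ± 0.12, adjusted p = 1.21e-08). ETV4, an ETS factor induced by ERK, was at 9.61 and 13.8 against 21.6 and 21.2 CPM (-0.86 ± 0.11, adjusted p = 1.56e-06). For these 3 genes every pacritinib library lay below both DMSO libraries. At 4 h 15 of the 16 had been lower and 0 higher. By the test of the difference, the effect was higher at 48 h than at 4 h for 7 of them and lower for CCND1 (-1.26 ± 0.36, adjusted p = 0.0129). DUSP4 (-1.35 ± 0.33, adjusted p = 0.0043) was no longer called without DMSO replicate 2 (adjusted p = 0.105) or without pacritinib replicate 1 (adjusted p = 0.128).

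The ID genes encode partners that keep basic helix-loop-helix factors from binding DNA, and they are the textbook targets of BMP receptors and SMAD proteins. Of 9 BMP-SMAD targets tested, 5 were lower and 0 higher at 48 h, with a median of -0.61. ID3 was at 3.51 and 5.26 CPM with pacritinib and 17.8 and 17.8 CPM with DMSO, and ID2 at 6.22 and 7.65 against 18.1 and 20.5 CPM. The groups were far apart for both genes. ID3 had a log2 fold change of -2.01 ± 0.13 at 48 h (adjusted p = 4.37e-13) and -2.02 ± 0.13 at 4 h. ID2 had -1.47 ± 0.12 (adjusted p = 6.33e-11) and -1.53 ± 0.12. The difference of the effects between the times was 0.01 ± 0.18 for ID3 and 0.06 ± 0.17 for ID2 (adjusted p = 0.979 and 0.861). BAMBI, a decoy receptor of the same pathway, was lower at 48 h (-0.62 ± 0.08, adjusted p = 1.35e-06). HEXIM1, an inhibitor of the elongation kinase P-TEFb, was at 47.7 and 53.3 CPM against 106 and 99.8 CPM (-1.03 ± 0.06, adjusted p = 1.59e-13). Its decrease was smaller than at 4 h, where it was -1.77 ± 0.06 (difference 0.75 ± 0.09, adjusted p = 2.00e-07).

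Amino acid starvation and mitochondrial or endoplasmic reticulum stress activate ATF4, a transcription factor that raises amino acid synthesis, uptake and tRNA charging. Of 22 ATF4 targets tested, 13 were higher at 48 h and 0 lower, with a median of 0.22. The higher genes numbered 10 without DMSO replicate 1, 8 without DMSO replicate 2, 8 without pacritinib replicate 1 and 12 without pacritinib replicate 2. CHAC1, a glutathione-degrading enzyme whose promoter is printed above, was at 9.73 and 7.2 CPM with pacritinib and 3.39 and 2.4 CPM with DMSO (1.54 ± 0.18, adjusted p = 1.17e-07). Its level in DMSO was lower at 48 h than at 4 h, where DMSO libraries had 13 and 16.2 CPM. ASNS, asparagine synthetase, was at 25 and 21.7 against 13.9 and 12.5 CPM (0.82 ± 0.12, adjusted p = 9.68e-06). PCK2, the mitochondrial PEP carboxykinase, was at 44.4 and 36.6 against 21.6 and 20.4 CPM (0.94 ± 0.09, adjusted p = 2.84e-09). All 3 were called higher at 4 h too, with log2 fold changes of 0.40 ± 0.13, 0.35 ± 0.12 and 0.34 ± 0.09. The effect grew between the times for CHAC1 (adjusted p = 0.000382) and PCK2 (adjusted p = 0.000752), and for ASNS the difference missed the threshold (adjusted p = 0.0535).

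Genes of serine synthesis were also among the higher ones. Of 18 genes of serine and one-carbon metabolism 9 were higher and 1 was lower, with a median of 0.24, and leaving out any 1 of the 4 libraries gave 8 higher and 0 lower. PHGDH, the first enzyme of serine synthesis, was at 129 and 115 CPM with pacritinib and 52.4 and 52.9 CPM with DMSO (1.21 ± 0.07, adjusted p = 1.59e-13). PSAT1, the next enzyme, was at 77.2 and 69.7 against 45.5 and 43.5 CPM (0.72 ± 0.06, adjusted p = 5.03e-10), and CBS, which condenses serine with homocysteine, at 7.30 and 6.73 against 3.20 and 2.38 CPM (1.33 ± 0.18, adjusted p = 2.19e-06). All pacritinib libraries exceeded all DMSO libraries for these 3 genes. Of the amino acid transporters 7 of 18 were higher and 4 lower, with a median of 0.06. SLC7A5, the large neutral amino acid carrier, was at 606 and 566 against 392 and 387 CPM (0.59 ± 0.05, adjusted p = 1.36e-10), and SLC7A11, the cystine carrier, at 17.7 and 17.0 against 10.4 and 11.4 CPM (0.67 ± 0.11, adjusted p = 5.13e-05). The lower transporters numbered 3, 2, 1 and 4 without DMSO replicate 1, DMSO replicate 2, pacritinib replicate 1 and pacritinib replicate 2. Of 20 tRNA synthetase genes 7 were higher and 0 lower with a median of 0.05, led by WARS (0.41 ± 0.06), CARS (0.40 ± 0.08) and AARS (0.33 ± 0.05). That count was 4 without pacritinib replicate 1.

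**Figure D3:**
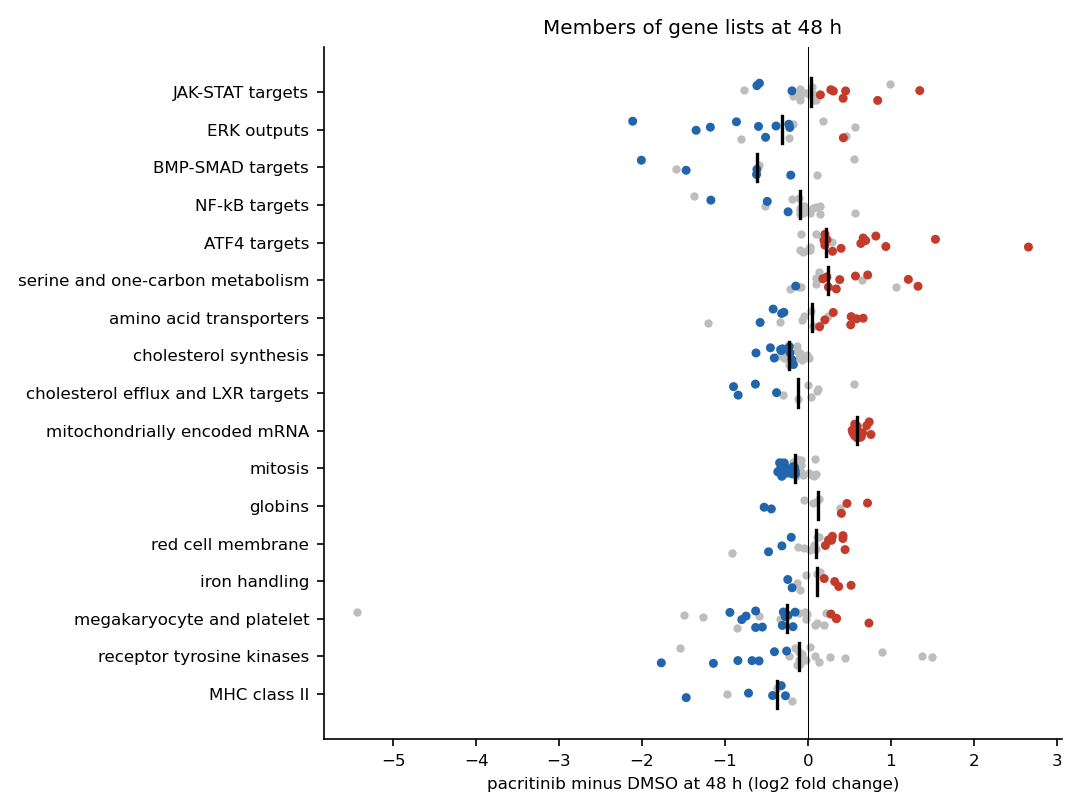
Log2 fold change at 48 h (horizontal axis) of each tested member of 17 gene lists (vertical axis), with called higher genes in red, called lower genes in blue, genes not called in grey and a black bar at the median of each list. The 13 mitochondrially encoded mRNAs lie together above 0, and the ATF4 and serine lists have medians of 0.22 and 0.24, while the BMP-SMAD and ERK lists have medians of -0.61 and -0.31.

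The mitochondrial genome encodes 13 subunits of the respiratory chain and ATP synthase. All 13 of their mRNAs were higher with pacritinib at 48 h, with a median log2 fold change of 0.60, and 11 to 13 were called when any 1 of the 4 libraries was left out. MT-ND1, a complex I subunit, was at 2636 and 2554 CPM against 1505 and 1557 CPM (0.76 ± 0.13, adjusted p = 8.44e-05), and MT-ND2 at 1874 and 1964 against 1135 and 1210 CPM (0.71 ± 0.12, adjusted p = 5.80e-05). The mRNAs together took 3.31 and 3.17% of counts with pacritinib and 2.12 and 2.20% with DMSO. Their summed level also exceeded DMSO (20799 and 21542 CPM) with the other inhibitors compared. It was 28476 and 27212 CPM with ruxolitinib, 27223 and 29619 with fedratinib and 25152 and 23325 with momelotinib. With adjustment within each pair, 2 of the 13 were higher with pacritinib than with ruxolitinib and 0 lower. The higher ones numbered 1 against fedratinib and 8 against momelotinib, again with 0 lower. The DMSO libraries at 4 h lay far apart, at 24780 and 17005 CPM. At 4 h 0 of the 13 were called in either direction, and the test of the difference between the times called 8. Of 42 nuclear genes for respiratory chain subunits 3 were higher and 1 lower at 48 h, with a median of 0.02, against 26 higher and 0 lower at 4 h. The higher ones numbered 0 without pacritinib replicate 1, and NDUFB8, the lower one, was not called without DMSO replicate 2 (adjusted p = 0.192) or pacritinib replicate 1 (adjusted p = 0.390). The mitochondrial rRNA gene MT-RNR2 was at 840 and 745 CPM against 354 and 554 CPM (0.80 ± 0.23, adjusted p = 0.0123). Its call was lost without DMSO replicate 1 (adjusted p = 0.227) and without pacritinib replicate 1 (adjusted p = 0.108). The share of RN7SL RNA moved in the same direction as these transcripts, and its part in the result was not tested.

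Sterol synthesis is driven by the factor SREBP2, and sterol efflux by the oxysterol receptors LXR. Of 24 genes of the cholesterol synthesis list 10 were lower and 0 higher, with a median of -0.22, and the lower genes numbered 6 without pacritinib replicate 1. INSIG1, which retains SREBP in the endoplasmic reticulum, was at 41.6 and 47.2 CPM with pacritinib and 67.4 and 69.8 CPM with DMSO (-0.62 ± 0.06, adjusted p = 1.48e-08). HMGCS1, an early enzyme of the pathway, was at 67.0 and 65.4 against 82.6 and 92.7 CPM (-0.40 ± 0.06, adjusted p = 8.29e-06). At 4 h 8 of the 24 had been higher and 0 lower. The difference between the times was below 0 for 12 genes and above 0 for 0. MSMO1 (-0.45 ± 0.12, adjusted p = 0.00582) was no longer called without DMSO replicate 2 (adjusted p = 0.0965) or without pacritinib replicate 1 (adjusted p = 0.101). Of 11 LXR targets and efflux genes 4 were lower and 0 higher with a median of -0.12, among them the exporter ABCG1 at 14.1 and 20.1 against 29.3 and 32.2 CPM (-0.84 ± 0.11, adjusted p = 1.66e-06). ABCA1 (-0.90 ± 0.19, adjusted p = 0.00108) was not called without pacritinib replicate 1 (adjusted p = 0.0719).

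Of 40 mitosis genes 19 were lower, by small amounts, and 0 higher, with a median of -0.16, and the count was 14, 12, 11 and 15 without DMSO replicate 1, DMSO replicate 2, pacritinib replicate 1 and pacritinib replicate 2. TOP2A, the topoisomerase of dividing cells, was at 303 and 308 CPM with pacritinib and 396 and 389 CPM with DMSO (-0.36 ± 0.07, adjusted p = 0.000236). Of 42 genes of G1/S and DNA replication 4 were higher and 7 lower, near the shares of all genes, with a median of -0.04. These counts fell to between 1 and 2 higher and between 1 and 4 lower when any 1 of the 4 libraries was left out. MYC was at 722 and 711 against 748 and 726 CPM and was not called (-0.04 ± 0.04, adjusted p = 0.536). MYCN, a close relative expressed at a low level, was at 2.00 and 2.84 against 7.92 and 7.75 CPM (-1.68 ± 0.18, adjusted p = 4.26e-08).

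The erythroid programme of these cells showed small changes in both directions. Of 10 globin genes 3 were higher and 2 lower, with a median of 0.12. HBQ1, which encodes the theta chain, was at 23.7 and 21.6 CPM with pacritinib and 13.2 and 14.3 CPM with DMSO (0.72 ± 0.10, adjusted p = 6.45e-06). HBA2, an alpha chain whose reads can be assigned to its near-identical copy HBA1, was at 227 and 204 against 159 and 152 CPM (0.47 ± 0.10, adjusted p = 0.000751). HBE1, the embryonic beta-like chain, was lower, at 176 and 173 against 243 and 231 CPM (-0.44 ± 0.06, adjusted p = 5.14e-06). HBB was called lower (-0.53 ± 0.17, adjusted p = 0.0274), but not without any 1 of the 4 libraries (adjusted p 0.0682 to 0.187), which left 1 lower globin. The fetal chain HBG2, the most abundant at 1721 and 1751 against 1798 and 1786 CPM, was not called (-0.05 ± 0.06, adjusted p = 0.665).

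Genes of iron uptake and the red cell membrane gave more increases than decreases. TFRC, the transferrin receptor, was at 1370 and 1282 CPM against 913 and 934 CPM (0.52 ± 0.05, adjusted p = 1.46e-09). It was 1 of 4 higher genes among 11 of iron handling, of which 2 were lower (1 without DMSO replicate 2). Of 20 red cell membrane genes 7 were higher and 3 lower, with a median of 0.10. They included XK, which carries the Kx antigen (0.45 ± 0.05, adjusted p = 1.47e-07), and, lower, EPB42, protein 4.2 (-0.47 ± 0.05, adjusted p = 3.34e-08). Of 11 haem synthesis genes 4 were higher and 1 lower, with a median of 0.13, and 1 was higher and 0 lower without DMSO replicate 1. Without DMSO replicate 2 haem genes numbered 2 higher and 1 lower, and without pacritinib replicate 1 they numbered 3 higher and 0 lower.

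Megakaryocyte and platelet genes were lower more often than higher. Of 32 tested 13 were lower and 4 higher, with a median of -0.26. The counts were 8 lower and 2 higher without DMSO replicate 1. SELP, the platelet adhesion molecule P-selectin, was at 23.5 and 24.5 CPM with pacritinib and 44.6 and 47.6 CPM with DMSO (-0.94 ± 0.08, adjusted p = 4.80e-10), and GP6, a collagen receptor, at 18.8 and 19.2 against 32.8 and 33.3 CPM (-0.80 ± 0.08, adjusted p = 2.58e-08). SELP was not called at 4 h and GP6 was (-0.18 ± 0.08 and -0.75 ± 0.08). P2RX1, an ATP-gated channel of platelets, was higher at 32.2 and 29 against 18 and 18.7 CPM (0.74 ± 0.09, adjusted p = 3.08e-07). TREML1 (-0.74 ± 0.19, adjusted p = 0.00499) was no longer called without DMSO replicate 1 (adjusted p = 0.206) or without pacritinib replicate 2 (adjusted p = 0.0856).

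CDH5, KDR and FLT4, each known from endothelium, were 3 of the 10 coding genes of moderate level with the largest decreases. They were named one by one for that size, and no list of endothelial genes was made. KDR and FLT4 are receptor tyrosine kinases, so the list count at the end of this paragraph may not be separate from them. CDH5, VE-cadherin, was at 2.80 and 2.39 CPM with pacritinib and 14.3 and 12.8 CPM with DMSO, a log2 fold change of -2.39 ± 0.15 (adjusted p = 6.66e-13). KDR, the VEGF receptor VEGFR2, was at 6.87 and 8.91 against 27.1 and 26.9 CPM (-1.77 ± 0.11, adjusted p = 1.59e-13). FLT4, the related VEGFR3, was at 15.8 and 15.7 against 36.9 and 37.2 CPM (-1.23 ± 0.08, adjusted p = 2.13e-12). These 3 were lowered at 4 h by smaller amounts (-0.53 ± 0.14, -0.98 ± 0.10 and -0.34 ± 0.08). The difference between the times was called for each, at -1.86 ± 0.21, -0.79 ± 0.15 and -0.89 ± 0.12 (adjusted p = 1.28e-07, 0.000211 and 2.32e-06). In the list of receptor tyrosine kinases 7 of 24 tested were lower and 0 higher, with a median of -0.10, and the count was 4 without DMSO replicate 1 and 4 without pacritinib replicate 1.

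Of 9 MHC class II genes 5 were lower and 0 higher, with a median of -0.37, but the count was 2 without DMSO replicate 1, 4 without DMSO replicate 2, 1 without pacritinib replicate 1 and 3 without pacritinib replicate 2. Of 18 MHC class I genes 2 were higher and 4 lower, with a median of 0.01. Without DMSO replicate 1 these were 1 and 2, without DMSO replicate 2 they were 0 and 4, without pacritinib replicate 1 they were 0 and 2, and without pacritinib replicate 2 they were 1 and 2. HLA-DPB1, at 0.431 and 0.762 against 1.71 and 1.65 CPM, was lower (-1.47 ± 0.37, adjusted p = 0.00487) except without pacritinib replicate 1 (adjusted p = 0.102). IL1B, the cytokine interleukin-1 beta, was at 20.5 and 25.1 against 54.2 and 48.7 CPM (-1.17 ± 0.08, adjusted p = 1.77e-12) and was not called at 4 h (-0.15 ± 0.08, adjusted p = 0.128). It was 1 of 3 lower NF-kB targets among 19 tested, with 0 higher (1 without DMSO replicate 2), where 14 had been lower at 4 h, and the list's median was -0.09 at 48 h. The 3 lower genes are close to the background share.

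Several other genes of moderate level changed by similar amounts. IGFBP4, which binds insulin-like growth factors, was at 4.96 and 6.99 CPM with pacritinib and 22.8 and 21.4 CPM with DMSO (-1.88 ± 0.13, adjusted p = 1.77e-12). NTS, the neuropeptide neurotensin, was at 4.53 and 5.55 against 16.3 and 15.2 CPM (-1.64 ± 0.12, adjusted p = 6.15e-12). ZNF467, a zinc finger gene, had a log2 fold change of -1.26 ± 0.12 (adjusted p = 5.73e-09). On the other side, CR1, the complement receptor of red cells, was at 13.9 and 10.7 against 5.18 and 4.75 CPM (1.30 ± 0.13, adjusted p = 1.18e-08). SEMA3C, a secreted guidance factor, rose by 1.06 ± 0.11, ST8SIA1, which makes the ganglioside GD3, by 1.01 ± 0.12 and CYP26B1, which degrades retinoic acid, by 1.00 ± 0.12 (adjusted p = 9.85e-09, 1.71e-07 and 2.89e-07). With genes described above, YBEY (1.04 ± 0.14), ASB1 (0.89 ± 0.09) and DLK1 (0.86 ± 0.09) complete the 10 most raised coding genes of moderate level. That ranking took only called genes whose pacritinib and DMSO libraries did not overlap. Coding genes at lower levels, such as OSM, were outside it and could rise by more. Among noncoding genes, the U3 small nucleolar RNA copy SNORD3B-2 was at 38.2 and 38.4 against 20.4 and 20.4 CPM (0.91 ± 0.08, adjusted p = 1.80e-09), with reads that can belong to other copies of U3.

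The effects at 48 h and 4 h were measured on separate libraries, with separate DMSO controls. At 4 h 4914 genes were called (30.6%). Of these, 1312 were called at 48 h as well, which is 44.5% of the genes called at 48 h and 26.7% of those called at 4 h. The direction was the same for 1084 of the shared genes (464 higher, 620 lower), and 228 changed direction, 126 of them from lower at 4 h to higher at 48 h. The test of the difference between the effects called 2881 genes, 17.9% of those tested, with 1662 above 0 and 1219 below. Of 1636 genes called at 48 h but not at 4 h, the difference was called for 704. Of the 1084 genes called in the same direction it was called for 158. It was called for all 228 of opposite direction, which their selection by opposite calls in the same fit nearly fixed in advance. The total of 2881 was 1835 without pacritinib replicate 2 at 4 h.

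**Figure D4:**
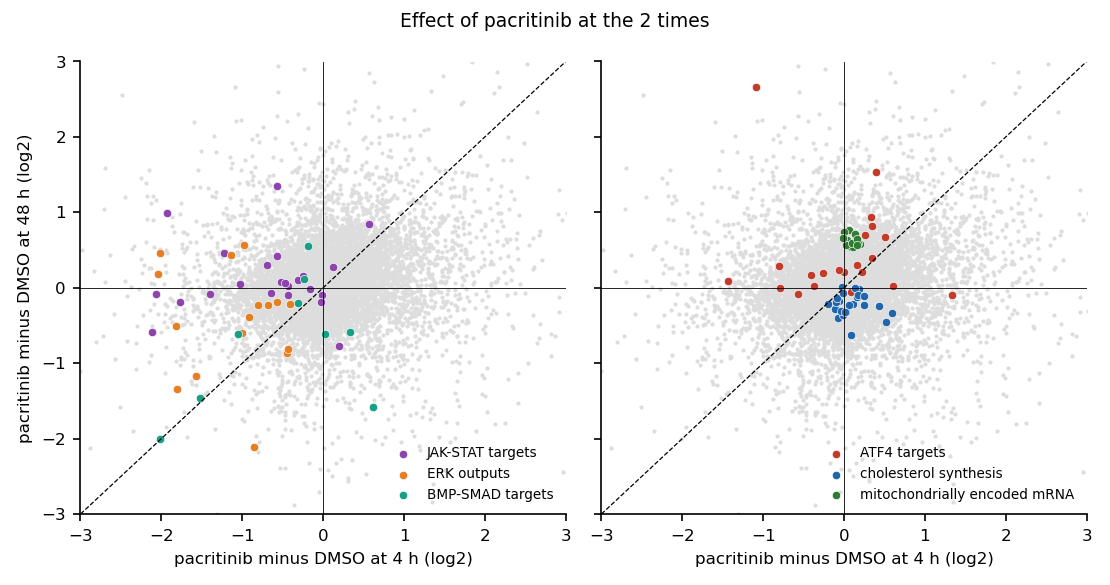
Log2 fold change against DMSO at 48 h (vertical axes) and at 4 h (horizontal axes), 1 point per gene, all tested genes in light grey and list members in colour, with the line of equal effect dashed. In the left panel most JAK-STAT targets lie left of 0 and near 0 on the vertical axis, while ID2 and ID3 among the BMP-SMAD targets lie on the dashed line; in the right panel the mitochondrial mRNAs lie above 0 on the vertical axis and near 0 on the horizontal one.

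Pacritinib was also compared with 3 other JAK inhibitors at the same dose and time, directly between the inhibitor libraries, with p-values adjusted over the genes of all 3 pairs together. Itacitinib was not compared here. Ruxolitinib is a pyrrolopyrimidine, while fedratinib and momelotinib are anilinopyrimidines like pacritinib but without its macrocycle. The pairs gave 3532 called genes against ruxolitinib, 2070 against fedratinib and 1592 against momelotinib. With adjustment within each pair, which is the one behind the list counts and shares of all genes in the comparisons with each inhibitor, the totals were 3960 (24.6%), 1928 (12%) and 1297 (8.07%). The last 2 counts were 1007 against fedratinib and 473 against momelotinib without pacritinib replicate 1. Without replicate 2 of fedratinib the former was 1201, and without replicate 1 or 2 of momelotinib the latter was 699 or 598.

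Against ruxolitinib, LIF, 17 of 24 JAK-STAT targets and 10 of 16 ERK outputs were higher with pacritinib, and 9 of 10 globins were lower. LIF was at 37.0 and 34.2 CPM with pacritinib and 3.42 and 3.45 CPM with ruxolitinib, a difference of 3.37 ± 0.15 on the log2 scale (adjusted p over the pairs = 3.48e-17). SOCS3 differed by 2.15 ± 0.13 and ETV5, an ETS factor induced by ERK, by 2.59 ± 0.10 (adjusted p = 8.18e-14 and 7.13e-19). With adjustment within the pair, of the 24 JAK-STAT targets 17 were higher with pacritinib than with ruxolitinib (11.8% of all genes were) and 1 was lower (12.8%), and of the 16 ERK outputs 10 were higher and 0 lower. HBA2 was at 766 and 727 CPM with ruxolitinib against 227 and 204 CPM with pacritinib (-1.79 ± 0.10, adjusted p = 5.98e-15), and HBZ, the embryonic alpha-like chain, differed by -1.99 ± 0.13 (adjusted p = 4.67e-13). Of 10 globins 9 were lower with pacritinib and 0 higher. CDH5 did not pass the test between them (-0.33 ± 0.18, 95% interval -0.71 to 0.04). Among other genes lowered against DMSO, IGFBP4 (1.08), FLT4 (0.64) and ID1 (0.74) were higher with pacritinib than with ruxolitinib, while ID3 (-0.70) and KDR (-0.53) were lower. Other large differences were in NPY1R (-1.89 ± 0.09), PAPPA (-2.08 ± 0.12) and IL1RL1 (2.15 ± 0.10).

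Against fedratinib, amino acid genes gave small differences in both directions, and ID3, KDR, NTS, LIF and FST larger ones. ASNS was at 26.6 and 24.4 CPM with fedratinib, overlapping pacritinib, and the difference was -0.13 ± 0.12 (95% interval -0.36 to 0.11). CHAC1 (-0.24, interval -0.54 to 0.07) and PSAT1 (-0.11, interval -0.23 to 0.01) did not pass either, and PHGDH passed over the 3 pairs (0.20, interval 0.06 to 0.33, adjusted p = 0.0494) but not within the pair (adjusted p = 0.0573). AARS, alanyl-tRNA synthetase, was higher with pacritinib (0.20 ± 0.05, adjusted p = 0.0026), and DDIT4, an inhibitor of mTOR signalling, was lower (-0.46 ± 0.11, adjusted p = 0.00359). With adjustment within the pair, of 22 ATF4 targets 2 were higher (5.52% of all genes) and 2 lower (6.48%), and of 18 genes of serine and one-carbon metabolism 4 were higher and 0 lower. ID3 differed by -1.13 ± 0.13 (adjusted p = 1.43e-07). KDR differed by -1.32 ± 0.11, NTS by -1.24 ± 0.12 and WNT11, a secreted WNT ligand, by -1.17 ± 0.13 (adjusted p = 5.16e-11, 2.20e-09 and 4.49e-08). LIF (1.68 ± 0.12) and FST, the activin antagonist follistatin (1.51 ± 0.12), were higher with pacritinib (adjusted p = 4.82e-12 and 3.03e-11). EGR1, an immediate-early ERK target, was at 46.2 and 39.7 CPM with fedratinib against 16.8 and 16.9 CPM with pacritinib (-1.35 ± 0.12, adjusted p = 4.43e-10). MT-RNR1 and MT-RNR2, for mitochondrial rRNA, were higher with pacritinib by 1.67 ± 0.27 and 1.58 ± 0.23, and their shares of counts ranged widely over all 24 libraries, from 0.00715 to 0.128% together.

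Against momelotinib, 9 of 18 genes of serine and one-carbon metabolism were higher with pacritinib and 0 lower, and ID3, IGFBP4 and KDR were lower. PHGDH was at 63.5 and 59.1 CPM with momelotinib against 129 and 115 CPM (0.99 ± 0.07, adjusted p = 2.06e-12), ASNS differed by 1.06 ± 0.12 and PCK2 by 0.91 ± 0.09 (adjusted p = 1.15e-07 and 2.21e-09). With adjustment within the pair, of 22 ATF4 targets 10 were higher (3.31% of all genes) and 0 lower (4.76%). ID3 was at 15.1 and 14.5 CPM with momelotinib against 3.51 and 5.26 CPM (-1.74 ± 0.13, adjusted p = 5.63e-12), and IGFBP4 differed by -1.38 ± 0.13, KDR by -1.37 ± 0.11 and ZNF467 by -1.4 ± 0.12 (adjusted p = 1.15e-09, 1.99e-11 and 2.02e-10). CR1 was higher by 0.93 ± 0.13 (adjusted p = 2.12e-06). ETV4 (-0.13, 95% interval -0.37 to 0.12), BCL2L1 (-0.05, interval -0.14 to 0.04) and HBA2 (-0.08, interval -0.28 to 0.12) did not pass the test. HEXIM1 was lower with pacritinib than with each of the 3, by values of -0.96 ± 0.06 against ruxolitinib, -1.01 ± 0.06 against fedratinib and -0.83 ± 0.06 against momelotinib (adjusted p = 1.32e-13, 4.48e-14 and 4.80e-12). INSIG1 passed against none of the 3, with intervals of -0.10 to 0.17, -0.10 to 0.17 and -0.17 to 0.10.

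**Figure D5:**
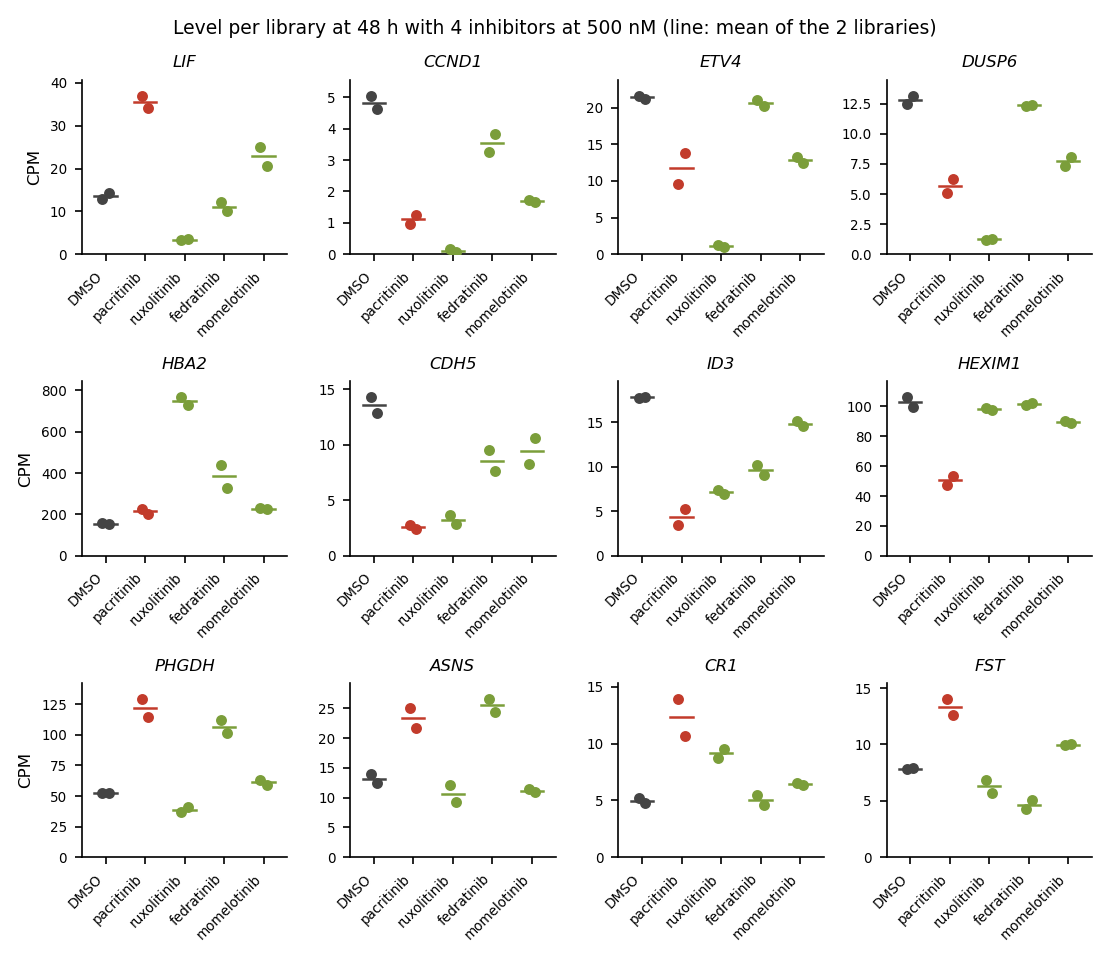
Level in CPM (vertical axes, starting at 0) of 12 genes in each library at 48 h with DMSO (dark grey), pacritinib (red) or 3 other inhibitors (green), 1 point per library and a line at the mean of the 2. HEXIM1 and ID3 are lowest with pacritinib, LIF is highest with it and lowest with ruxolitinib, and PHGDH and ASNS are high with pacritinib and fedratinib.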

How the data were processed

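Total RNA of HEL cells was sequenced on an Illumina NovaSeq instrument, per the labels' protocols. The submitters' processing notes name bcl2fastq, STAR 2.5.1a, edgeR and the genome GRCh38. The deposited table, made by the authors, holds raw counts of reads per gene. How reads were assigned to genes, by which annotation and strand, is not given in the sources used, so reads of antisense and overlapping genes may not be told apart. Of 34343 entries 130 repeated an ID with the same counts, which left 34213 genes.

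Counts were tested with edgeR 4.0.16 (filterByExpr, TMM, quasi-likelihood, 1 mean per group over all 24 libraries, R 4.3.3). The fit kept 16076 genes and had 12 residual and a median of 19.4 prior degrees of freedom. P-values were adjusted by Benjamini-Hochberg, with calls at an adjusted p under 0.05. The SE was the absolute log2 fold change over the square root of F, and 95% intervals used 31.4 degrees of freedom. CPM are counts scaled by library size and TMM factor. Coordinates are from GENCODE 29 and promoters from RefSeq GRCh38.p14. The script was tested on simulated data.

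Alternatives were DESeq2 1.42.0, RLE scaling, no or a stricter low-count filter (1 CPM in 6 libraries), fewer groups in the fit, a replicate block and each library left out, where the remaining library of that group took its spread from the rest. Protein-coding genes only was chosen after seeing the data. The 2 libraries of every group differed by more than sampling noise.

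Named genes were the 10 coding and 4 noncoding genes per direction with the largest change (mean log2 CPM of at least 3, no overlap of libraries, called), up to 4 called members of each of 49 lists (mean log2 CPM of at least 0), 18 further genes (such as JAK2, CISH, MYC and HEXIM1), 5 genes per direction for the difference between times and 4 per direction for each other inhibitor. Those printed were picked from these. The members and lists were chosen with earlier results of these data known. The result for 1 gene is not reported here.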

Additional observations from a re-analysis of the deposited data

Results flagged for a closer look

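Each gene here had an effect of pacritinib against DMSO that differed between 48 h and 4 h by edgeR's test of the difference (Benjamini-Hochberg over 16076 genes). Values are the log2 effect at 48 h minus that at 4 h. PHLDA1 differed by 2.22, LIF by 2.18, BCL3 by 1.98, SOCS3 by 1.68 and HSPA1B by 1.58, the 5 coding genes of moderate level with the largest positive differences. PHLDA1 moved in its controls as well: DMSO libraries were at 51.3 and 48.9 CPM at 4 h and 7.16 and 9.26 CPM at 48 h. HSPA1B, a heat shock chaperone whose reads can belong to its near-identical copy, was at 20.3 and 16.9 CPM with pacritinib at 4 h and 48.0 and 50.6 CPM at 48 h, with DMSO between 55.8 and 63.7 CPM. On the other side were RAPGEFL1 (-1.49), IGFBP4 (-1.40), LIPC (-1.35), NTS (-1.12) and MYH7B (-1.11). RAPGEFL1 and LIPC, the gene of hepatic lipase, were above DMSO at 4 h (0.94 ± 0.12 and 0.79 ± 0.11) and below it at 48 h (-0.55 ± 0.13 and -0.56 ± 0.11). Among single genes named by rule, CISH and SOCS2 differed by 1.00 each, HEXIM1 by 0.75, BCL2L1 by 0.58, ID1 by 0.44 and PIM1 by 0.40. HMGCS1 differed by -0.33 and the fetal globin HBG2 by -0.31.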

How the results depend on the processing

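The count of genes called at 48 h depended most on single libraries: it ranged from 1475 to 2208 over the 4 left out in turn. The same ranges were 1835 to 2738 for the difference between times, 2757 to 2949 against ruxolitinib, 1007 to 1303 against fedratinib and 473 to 1011 against momelotinib. The other settings kept all 5 counts within 1.5 times. At 48 h these were 3034 with DESeq2, 2943 with RLE scaling, 2795 without a filter, 3055 with the stricter filter, 3304 with the 48 h libraries, 3310 with the compared groups and 2949 with protein-coding genes, the last chosen after seeing the data. With the replicate number as a replicate block the count was 3135 at 48 h, 3049 for the difference between times, and 4115, 2100 and 1384 against ruxolitinib, fedratinib and momelotinib. Deviations of same-numbered libraries correlated at 0.020 between pacritinib and DMSO at 48 h, and between -0.038 and 0.048 over all 66 pairs of groups. These correlations count low genes the same as high ones, so they cannot exclude that the numbers pair the samples. Among named genes, leaving out a library ended 184 calls and reversed 8 signs in 1156 values, and the other settings ended 10 calls and reversed 0 signs in 2061. At 48 h, leaving out 1 library in turn gave HIST1H1A -2.78 (without pacritinib replicate 2, which holds nearly all of its counts) to 4.74, PHLDA1 -0.031 (without pacritinib replicate 2) to 0.39 and BCL3 -0.26 to 0.054 (without pacritinib replicate 1). For the difference between times it gave IRAK1 -0.044 to 0.020, above 0 without DMSO replicate 1 at 4 h, pacritinib replicate 2 at 48 h or pacritinib replicate 1 at 4 h. TYK2 ranged from -0.011 to 0.067, below 0 without DMSO replicate 2 at 48 h or pacritinib replicate 2 at 4 h. Except for HIST1H1A at 48 h (3.76), these results were not called with all libraries. With 2 libraries per group, low genes and changes near the median of 0.30 are the least certain, and the causes of the shifts were not tested.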

Other observations

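Of 22 NRF2 targets 2 were higher and 7 lower (3 lower without DMSO replicate 1, 3 without DMSO replicate 2, 4 without either pacritinib library), with a median of -0.04. HMOX1, haem oxygenase 1, was at 5.67 and 8.52 CPM with pacritinib and 12.6 and 12.8 CPM with DMSO (-0.83 ± 0.13, edgeR adjusted p = 3.39e-05). Of 27 unfolded protein response genes 3 were higher and 6 lower, with a median of -0.04, and between 0 and 1 were higher and between 3 and 5 lower with any 1 library left out. Over all genes tested 8.26% were higher and 10.1% lower. The chaperones HSPA5 and HSP90B1 were lower by small amounts (-0.21 ± 0.04 and -0.25 ± 0.05). Of 18 hypoxia targets 1 was higher and 5 lower, with a median of -0.14, and fewer were lower with any 1 library left out. The higher one, DDIT4, an inhibitor of mTOR signalling that is also an ATF4 target, was at 12.1 and 10.3 against 7.51 and 6.80 CPM (0.64 ± 0.12, adjusted p = 0.000317), while DMSO stood at 52.4 and 55.2 CPM at 4 h.

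Among the partners of HEXIM1 in the control of elongation, CCNT2, a cyclin subunit of P-TEFb, was at 44.2 and 42.4 against 32.4 and 34.7 CPM (0.37 ± 0.06, adjusted p = 0.000114), and the kinase subunit CDK9 at 97.2 and 91.5 against 80.4 and 79.3 CPM (0.24 ± 0.05, adjusted p = 0.000779). In the list of 12 BET and P-TEFb genes 3 were higher and 1, HEXIM1, was lower. The third higher gene was HEXIM2, a relative of HEXIM1 (0.52, 95% interval 0.23 to 0.80). Of 12 monocyte and granulocyte genes 2 were higher and 2 lower (8.26 and 10.1% of all genes were). SPI1, the myeloid factor PU.1, was at 73.1 and 79.2 against 111 and 106 CPM (-0.51 ± 0.06, adjusted p = 2.29e-07), while CD68 (0.37 ± 0.09, adjusted p = 0.00522) and ITGAM (0.32 ± 0.10, adjusted p = 0.0217) were higher. The calls for CD68 and ITGAM were lost without DMSO replicate 1 (adjusted p = 0.0513 and 0.0705) and without pacritinib replicate 1 (adjusted p = 0.0574 and 0.216), and that for ITGAM also without DMSO replicate 2 (adjusted p = 0.129). Of 9 mast cell and basophil genes 3 were higher and 1 lower. GATA2, a progenitor and mast cell factor, was at 1258 and 1247 against 1026 and 1014 CPM (0.30 ± 0.04, adjusted p = 1.17e-05), and MS4A2, a subunit of the IgE receptor, at 14.3 and 15.5 against 9.79 and 8.72 CPM (0.69 ± 0.11, adjusted p = 2.09e-05). CPA3, a mast cell protease, was lower (-0.34 ± 0.08, adjusted p = 0.00177), except without DMSO replicate 2 (adjusted p = 0.0693). Of 34 interferon-stimulated genes 1 was higher and 5 lower, led by IFI6 (-0.61 ± 0.07, adjusted p = 2.97e-07). The lower ones were near the share of all genes tested (10.1%), and 8.26% of all genes were higher. Of 27 p53 targets 3 were higher and 3 lower, near those shares, against 2 and 15 at 4 h (13.1 and 17.4% of all genes). Of 83 cytosolic ribosomal protein genes 13 were higher and 0 lower at 48 h, but 2 were higher without DMSO replicate 2 and 1 without pacritinib replicate 1.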
